A study of Mus musculus with 9 samples.

Results

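Protein lipoylation in mouse mammary carcinoma cells was examined through 10 genes: Fdx1, Lias, Lipt1 and Lipt2, which make or transfer lipoate, Dlat, Dlst and Gcsh, which carry it, and Pdha1, Pdhb and Dld, which work beside the lipoylated proteins. They were taken by symbol from the 54532 genes of the deposited table, and all 10 are among the 13915 genes with enough counts to be tested. The RNA-seq data comprise 9 libraries of the mouse breast cancer line 4T1, grown in high-glucose medium with serum and antibiotics. Control cells received medium, Cu_TCPP cells received Cu-TCPP(Fe)-PEG and are labelled as having consumed glutathione (GSH), and Au_TCPP cells received Au/Cu-TCPP(Fe)-PEG, labelled for glucose-like oxidase activity as well as GSH consumption. Each group has 3 libraries, the treatment time is 24 h, and no source used here gives a dose. Separate cultures are not named for the replicates, and the p-values rest on the spread between these libraries, which may be technical.

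Lipoate is a sulphur-containing cofactor bound to a lysine of a few mitochondrial proteins. In mammals LIPT2 places an octanoyl chain from the mitochondrial acyl carrier protein on GCSH, the iron-sulphur enzyme LIAS inserts the sulphurs, and LIPT1 moves the finished lipoyl group to the E2 subunits of the 2-oxoacid dehydrogenases. FDX1, a mitochondrial ferredoxin, is needed for lipoylation. Copper in excess binds lipoylated proteins and makes them aggregate, a form of cell death called cuproptosis, in which FDX1 and the lipoylation enzymes are required.

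The lysines that carry lipoate define the carriers, so the coding sequence around each is given first, from GENCODE M21 transcripts on mm10, the build of the deposited table. Each run has 63 bases, written 5′ to 3′ on the coding strand, with the lysine codon in capitals.
Dlat, first lipoyl domain, lysine 131, chr9:50658275-50658277, exon 3: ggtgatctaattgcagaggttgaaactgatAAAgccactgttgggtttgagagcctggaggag
Dlat, second lipoyl domain, lysine 258, chr9:50653632-50653634, exon 5: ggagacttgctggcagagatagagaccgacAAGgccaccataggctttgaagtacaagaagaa
Dlst, lysine 111, chr12:85118835-85118837, exon 6: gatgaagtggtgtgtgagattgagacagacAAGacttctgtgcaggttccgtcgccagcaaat
Gcsh, lysine 104, chr8:116983911-116983913, exon 4: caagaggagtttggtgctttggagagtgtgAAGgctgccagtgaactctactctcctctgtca
The 2 windows of Dlat share 39 of 63 bases, and those of Dlat and Dlst share 31 and 33. The window of Gcsh shares 23 to 27 bases with the others and is the least alike of the 4. Relatives that could share reads with the members were looked up by name or description only, with no search by sequence. Of those found, Pdha2 and a processed pseudogene of Pdhb were at 0 in all 9 libraries, and Fdx1l had 3 to 15 counts.

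Library totals lay between 15477324 and 17494776 counts. Levels are CPM, read counts scaled to a common effective library total, given for the replicates in the order of their numbers and as mean ± SD (n = 3). Genes are called at an adjusted p under 0.05. Au_TCPP libraries stood apart from the other 6 in the length of the genes counted, with a mean of 4549 to 4669 nt against 5601 to 5754 nt. Au_TCPP replicate 2 stood apart within its group, with 2.37% of counts from mitochondrial genes against 1.09% to 1.47% in the other 8 libraries. The epithelial markers Epcam, Cdh1, Krt8, Krt18, Krt7 and Krt19 summed to 2930 to 3188 CPM in Control, 2850 to 3185 in Cu_TCPP and 4412 to 5334 in Au_TCPP, and all 6 rose with Au_TCPP. With Cu_TCPP, Epcam fell 1.28-fold (adjusted p = 0.0029), Cdh1 1.16-fold (adjusted p = 0.041) and Krt7 1.30-fold (adjusted p = 0.0041). Krt8 rose 1.36-fold with Cu_TCPP (adjusted p = 0.0025), and Krt18 and Krt19 were not called. The 7 macrophage markers summed to 40.7 to 44.0 CPM in Control, 27.8 to 31.2 in Cu_TCPP and 79.8 to 98.3 in Au_TCPP. Adgre1 was at 0 in every library, and Csf1r, Itgam and Lyz2 were each at most 0.57 CPM. Cd68 and Cd14 made up most of the sum. Cd68 was at 25.2 to 29.1, 9.13 to 13.3 and 53.3 to 75.2 CPM in the same order. Cd14 was at 11.65 to 12.6, 11.2 to 12 and 18.4 to 22.1 CPM. The fibroblast markers summed to 35.2 to 40.6, 16.3 to 19.7 and 26.7 to 31.7 CPM, with Col3a1 and Pdgfrb at 0. Nearly all of that was Pdgfra, at 33.1 to 37.9, 15.5 to 18.8 and 26.1 to 31.4 CPM. The 5 endothelial markers summed to 41.4 to 46.0, 35.3 to 37.4 and 30.0 to 35.5 CPM, and the 5 lymphocyte markers to 1.56 to 1.97, 0.690 to 1.70 and 1.79 to 3.87 CPM. The part of gene length and of these markers in the differences below was not tested, except where a value with offsets for gene length is given. In bulk RNA, fewer cells of a type and less RNA per cell cannot be told apart.

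With Cu_TCPP, 3 of the 10 genes rose against Control, 0 fell and 7 did not pass. The 3 are Gcsh, Fdx1 and Lias. Among all genes tested 40.4% were called, 19.2% as higher and 21.2% as lower. With only 10 genes, 3 rises do not set the lipoylation genes apart from these shares. Of the 3 calls, that on Lias was lost whichever Control or Cu_TCPP library was left out. The median log2 fold change of the 10 was 0.23, against -0.01 over all genes. The Cu_TCPP and Control libraries did not overlap for 8 of the 10, against 59.4% of all genes. Without Au_TCPP replicate 2, which is in neither group here but enters the filter, the scaling and the shared estimate of spread, 8 were called: Fdx1, Lias, Lipt2, Dlat, Dlst, Gcsh and Dld as risen and Pdhb as fallen. The share of all genes called without that library was 50.4%. With offsets for gene length 7 were called, all as risen, and 43.8% of all genes, with 3718 of all genes higher and 2379 lower in place of 2673 and 2944.

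With Au_TCPP, 5 rose against Control, 2 fell and 3 did not pass. Fdx1, Gcsh, Dld, Pdhb and Dlst rose, and Lipt1 and Lipt2 fell. The background here was 69.1% called, 34.4% as higher and 34.7% as lower, so 7 of 10 called is a share near that of all genes. The median was 0.25 against -0.01 over all genes. Libraries did not overlap for 8 of the 10, against 71.9% of all genes. Library totals alone gave 2 rises and 4 falls among the 10, with 2626 of all genes higher and 7098 lower in place of 4783 and 4828.

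Between the 2 materials, which differ by the gold component, Fdx1, Pdhb and Dld were higher with Au_TCPP, Lipt1, Lipt2, Dlat and Gcsh were lower, and 3 did not pass. The background was 65.9% called, 34.6% as higher and 31.3% as lower, and the medians were -0.01 for the 10 and 0.04 for all genes. Libraries did not overlap for 7 of the 10, against 67% of all genes. Library totals alone gave 1 higher and 7 lower among the 10, with 2830 and 6526 of all genes in place of 4814 and 4362. The 3 comparisons share their groups pairwise, so their results are not independent.

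**Figure D1:**
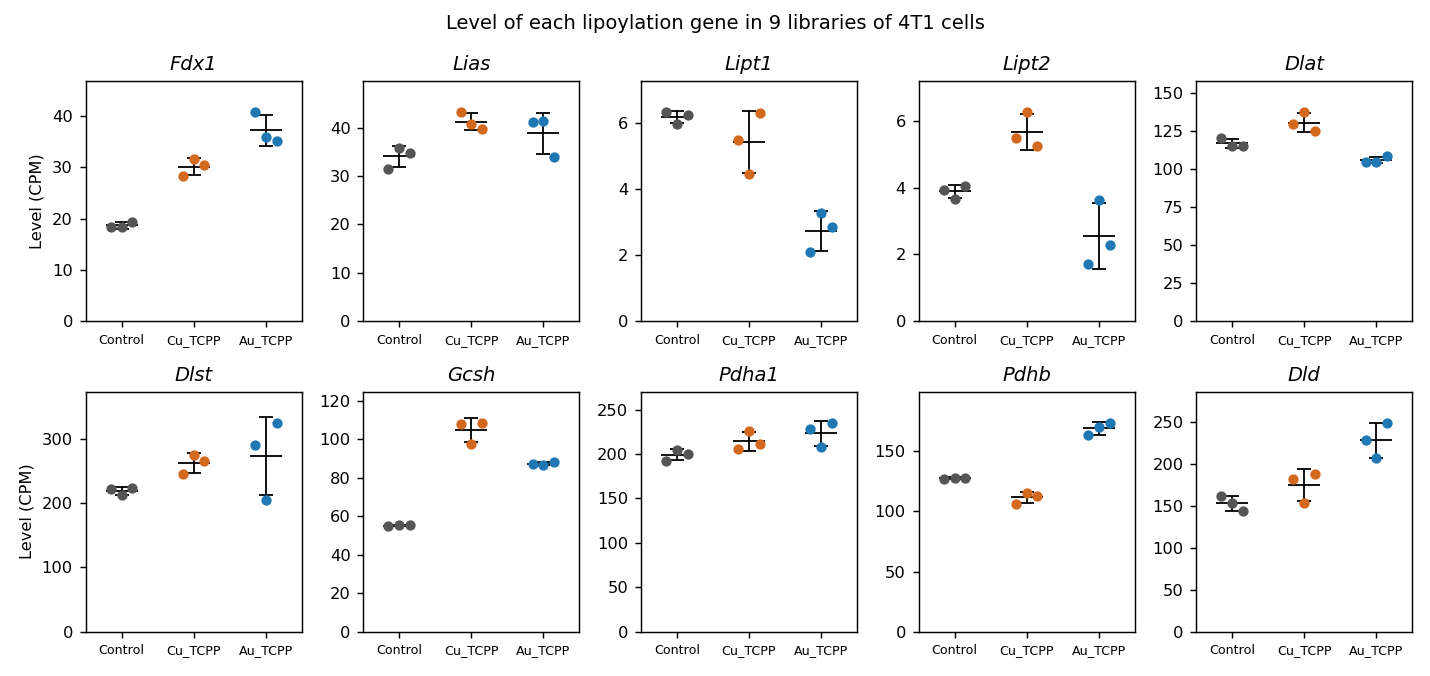
Level of each of the 10 genes in CPM on a linear axis from 0, with 1 panel per gene and its own scale; points are the 3 libraries of Control (grey), Cu_TCPP (orange) and Au_TCPP (blue), and bars are the mean and SD. Fdx1 is higher in all 6 treated libraries than in Control, Gcsh is highest with Cu_TCPP, and Lipt1 is lowest with Au_TCPP.

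Fdx1 (ENSMUSG00000032051, minus strand of mm10 chr9:51943306-51963556) rose with both materials. Its level was 18.3, 18.3 and 19.4 CPM in Control, 28.4, 31.6 and 30.4 with Cu_TCPP and 40.8, 35.9 and 35.2 with Au_TCPP. The 3 groups did not overlap and stood in the order Control, Cu_TCPP, Au_TCPP. The mean rose from 18.7 ± 0.602 to 30.1 ± 1.61 CPM with Cu_TCPP, a log2 fold change of 0.69 (SE 0.096, adjusted p = 7.3e-05). With Au_TCPP it reached 37.3 ± 3.04 CPM, 2.0-fold the Control level (log2 fold change 1.00, SE 0.097, adjusted p = 3.7e-07). Both rises were called under every alternative run. The step between the materials was smaller, 1.24-fold (adjusted p = 0.010). It was not called without Cu_TCPP replicate 1 (adjusted p = 0.084), without Au_TCPP replicate 1 (0.095), with the 6 libraries alone (0.058), with no filter on low counts (0.12) or with offsets for gene length (0.17), and with library totals alone its sign turned (log2 fold change -0.066).

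Fdxr encodes the reductase that passes electrons to mitochondrial ferredoxins, and is shown because it is the partner of Fdx1; it was chosen after its values were seen. It went the other way, from 27.9, 27.9 and 26.5 CPM in Control to 17.8, 21.3 and 18.2 with Cu_TCPP and 18.2, 17.6 and 18.3 with Au_TCPP. The fall was 1.44-fold with Cu_TCPP (adjusted p = 0.00089) and 1.52-fold with Au_TCPP (adjusted p = 0.0001). Per gene length, the ratio of Fdxr to Fdx1 was 1.63 ± 0.0981 in Control, 0.699 ± 0.0429 in Cu_TCPP and 0.537 ± 0.0407 in Au_TCPP, with no overlap between the groups.

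Lias (ENSMUSG00000029199, plus strand of chr5:65391497-65410693), the lipoyl synthase, was measured at 31.6, 35.9 and 34.8 CPM in Control, 43.2, 40.8 and 39.8 with Cu_TCPP and 41.3, 41.4 and 33.9 with Au_TCPP. The Cu_TCPP libraries all lay above Control, while Au_TCPP overlapped Cu_TCPP through replicates 1 and 2 and Control through replicate 3. The rise with Cu_TCPP was 1.21-fold (log2 fold change 0.27, SE 0.098, adjusted p = 0.036). That call was lost when any 1 Control or Cu_TCPP library was left out (adjusted p 0.052 to 0.14), and with library totals alone (0.13). With Au_TCPP the log2 fold change was 0.19 (95% interval -0.02 to 0.40, adjusted p = 0.10), called with offsets for gene length (0.32, adjusted p = 0.011) and without Au_TCPP replicate 3 (0.25, adjusted p = 0.036). Genes that overlap Lias, 1110003F10Rik on the same strand and Gm43311 on the other, had at most 12 and 4 counts per library.

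The genes of both lipoyl and octanoyl transferases fell with the gold material. Lipt1 (ENSMUSG00000037216, plus strand of chr1:37871738-37876228), whose product loads the E2 subunits, had 114, 111 and 114 counts in Control, 97, 84 and 112 with Cu_TCPP and 28, 45 and 36 with Au_TCPP. As levels these were 6.34, 5.99 and 6.25 CPM, then 5.50, 4.46 and 6.33 CPM, then 2.09, 3.28 and 2.84 CPM. Au_TCPP lay below all other libraries, and Cu_TCPP overlapped Control. The fall against Control was 2.26-fold (log2 fold change -1.17, SE 0.21, adjusted p = 0.00017) and that against Cu_TCPP 1.98-fold (log2 fold change -0.98, SE 0.212, adjusted p = 0.00086). Both were called under every alternative, with log2 fold changes of -1.59 to -0.79 against Control. For Cu_TCPP against Control the log2 fold change was -0.19 (95% interval -0.60 to 0.21, adjusted p = 0.45).

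Over whole gene spans, introns included, Lipt1 shares 1428 bases with Mitd1 on the opposite strand. No source used here states whether counting was stranded, so how reads within that stretch were counted is not known. Mitd1 was at 20.6, 19.2 and 16.3 CPM in Control, 14.3, 13.6 and 12.7 with Cu_TCPP and 23.5, 36.0 and 18.4 with Au_TCPP. Its log2 fold change with Au_TCPP was 0.48 (adjusted p = 0.039), opposite in sign to that of Lipt1.

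Lipt2 (ENSMUSG00000030725, plus strand of chr7:100159277-100161365) encodes the octanoyltransferase that starts the pathway. It had 71, 68 and 74 counts in Control, 97, 118 and 93 with Cu_TCPP and 23, 50 and 29 with Au_TCPP. The corresponding levels were 3.95, 3.67 and 4.06 CPM, 5.50, 6.26 and 5.25 CPM, and 1.72, 3.64 and 2.29 CPM. Cu_TCPP lay above Control and Au_TCPP below it, with Au_TCPP replicate 2 just under the lowest Control library. The difference between the materials was 2.22-fold (log2 fold change -1.15, SE 0.239, adjusted p = 0.00065) and was called under every alternative. Against Control, the fall with Au_TCPP was 1.52-fold (log2 fold change -0.60, SE 0.246, adjusted p = 0.040). Leaving out any Control library, Cu_TCPP replicate 3 or Au_TCPP replicate 1 or 3 ended that call (adjusted p 0.050 to 0.14), and without Au_TCPP replicate 2 the log2 fold change was -0.98 (adjusted p = 0.0011). With Cu_TCPP the log2 fold change was 0.54 (95% interval 0.07 to 1.02, adjusted p = 0.062), and 0.56 (adjusted p = 0.011) without Au_TCPP replicate 2.

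**Figure D2:**
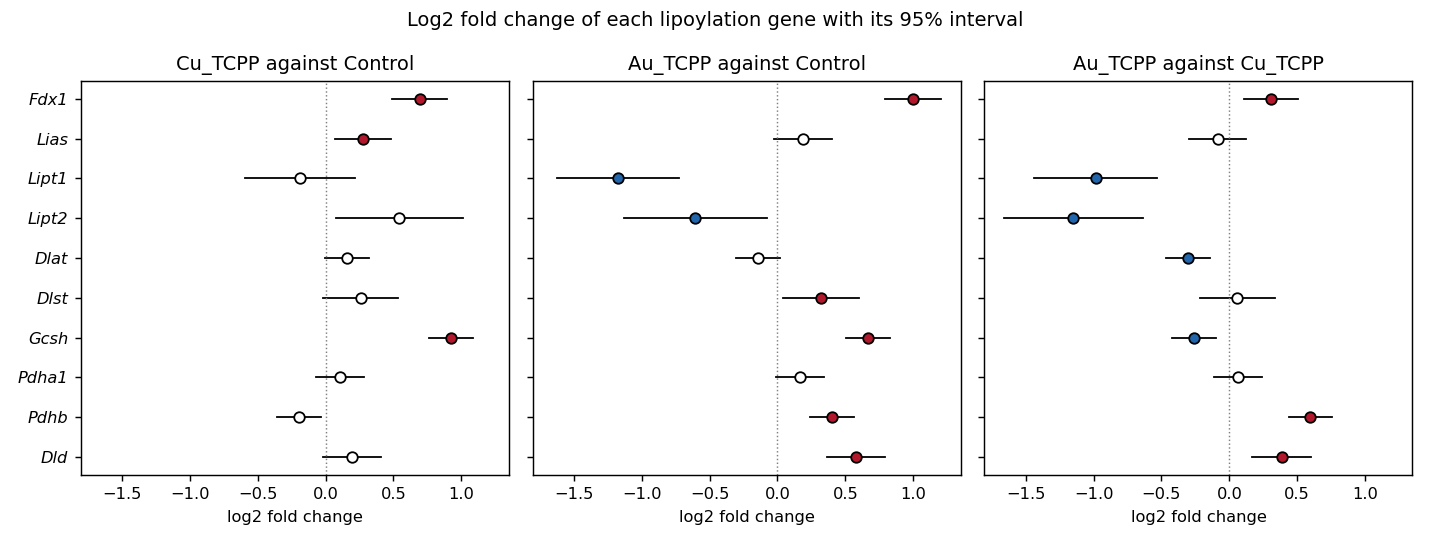
Log2 fold change (horizontal axis) of each of the 10 genes in the 3 comparisons, 1 panel each; points are estimates from edgeR, lines are 95% intervals, and red or blue points are genes called as risen or fallen. With Au_TCPP against Control, Lipt1 (-1.17) and Lipt2 (-0.60) are the called genes left of 0, while Fdx1 (1.00) lies farthest right.

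Gcsh (ENSMUSG00000034424, minus strand of chr8:116981810-116993537), the H protein of the glycine cleavage system and the first acceptor of the octanoyl chain, had the largest rise of the 10 with Cu_TCPP. It was at 54.9, 55.4 and 55.2 CPM in Control, 108, 97.6 and 109 with Cu_TCPP and 87.2, 86.7 and 88.2 with Au_TCPP. The 3 groups did not overlap, and the libraries of Control and of Au_TCPP lay close together. The rise was 1.90-fold with Cu_TCPP (log2 fold change 0.92, SE 0.075, adjusted p = 8.2e-07) and 1.58-fold with Au_TCPP (log2 fold change 0.66, SE 0.076, adjusted p = 2.1e-06). Au_TCPP was 1.20-fold below Cu_TCPP (adjusted p = 0.0065). All 3 were called under every alternative. Against Control, the Au_TCPP value dropped to 0.39 with offsets for gene length and to 0.24 with library totals alone.

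Amt, the aminomethyltransferase of the same system, fell where Gcsh rose. It was at 8.21 ± 0.670 CPM in Control, 3.06 ± 0.660 in Cu_TCPP and 2.71 ± 0.381 in Au_TCPP. It fell 2.68-fold (adjusted p = 6.5e-05) and 3.02-fold (adjusted p = 6.7e-06). Per gene length, the ratio of Amt to Gcsh went from 0.0964 ± 0.00774 in Control to 0.0190 ± 0.00425 in Cu_TCPP and 0.0201 ± 0.00294 in Au_TCPP. Gldc, the glycine decarboxylase, was not tested: it had 8, 0 and 5 counts in Control, 0 in each Cu_TCPP library and 2, 10 and 1 in Au_TCPP.

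Dlat (ENSMUSG00000000168, minus strand of chr9:50634633-50659780), the E2 core of pyruvate dehydrogenase, differed between the 2 materials but not, by the test, from Control. It was at 121, 115 and 115 CPM in Control, 129.7, 138 and 125 with Cu_TCPP and 105, 105 and 109 with Au_TCPP. The 3 groups did not overlap. Against Control neither difference passed: the log2 fold change was 0.16 with Cu_TCPP (95% interval -0.0015 to 0.32, adjusted p = 0.11) and -0.14 with Au_TCPP (95% interval -0.30 to 0.02, adjusted p = 0.11). Between the materials, Dlat was 1.23-fold lower with Au_TCPP (log2 fold change -0.30, SE 0.076, adjusted p = 0.0027), called under every alternative. The Cu_TCPP difference was called under 6 alternatives, with log2 fold changes of 0.17 to 0.24 (adjusted p 0.015 to 0.046): offsets for gene length, the 6 libraries alone, DESeq2, limma with either pseudocount, and without Au_TCPP replicate 2. With offsets for gene length the Au_TCPP value against Control was 0.011, and with library totals alone it was -0.56 (adjusted p = 8.6e-06).

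Dlst (ENSMUSG00000004789, plus strand of chr12:85110833-85134845) encodes the E2 of 2-oxoglutarate dehydrogenase. Its level was 221, 212 and 224 CPM in Control, 245, 275 and 266 with Cu_TCPP and 289.9, 205 and 324 with Au_TCPP. Cu_TCPP lay above Control, and Au_TCPP replicate 2 lay below every other library while the other 2 of that group lay above all. With Cu_TCPP the log2 fold change was 0.26 (95% interval -0.02 to 0.54, adjusted p = 0.13), and 0.27 (adjusted p = 0.0021) without Au_TCPP replicate 2. With Au_TCPP it was 0.32 (SE 0.13, adjusted p = 0.041) and rested on which libraries entered: 0.46 without Au_TCPP replicate 2, 0.25 (adjusted p = 0.17) without replicate 1 and 0.14 (adjusted p = 0.31) without replicate 3. Leaving out any Control or Cu_TCPP library also ended the call (adjusted p 0.060 to 0.16), as did the 6 libraries alone (0.079) and limma on FPKM (0.11). The value was 0.71 with offsets for gene length and -0.12 with library totals alone. Between the materials the log2 fold change was 0.06 (95% interval -0.22 to 0.34, adjusted p = 0.70). It was called in opposite directions under other settings: 0.19 (adjusted p = 0.027) without Au_TCPP replicate 2, 0.36 (adjusted p = 0.025) with offsets for gene length and -0.32 (adjusted p = 0.014) with library totals alone.

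Ogdh, the E1 partner of Dlst, fell with Au_TCPP and was not called with Cu_TCPP against Control (log2 fold change 0.19, adjusted p = 0.12). It was at 143, 138 and 148 CPM in Control, 159, 162 and 169.7 with Cu_TCPP and 34.6, 33.0 and 42.8 with Au_TCPP. The fall was 3.89-fold against Control (adjusted p = 7.3e-10) and 4.44-fold against Cu_TCPP (adjusted p = 3.3e-10), both called under every alternative. Per gene length, the ratio of Ogdh to Dlst was 1.14 ± 0.0132 in Control, 1.09 ± 0.0582 in Cu_TCPP and 0.240 ± 0.0372 in Au_TCPP.

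Pdha1 (ENSMUSG00000031299, minus strand of chrX:160122209-160138413), the alpha subunit of the E1 of pyruvate dehydrogenase, was not called in any comparison by the main test. It was at 192, 204 and 200.4 CPM in Control, 206, 226 and 211 with Cu_TCPP and 228, 208 and 235 with Au_TCPP. Both treated groups lay just above Control and overlapped each other. The log2 fold changes were 0.11 with Cu_TCPP (95% interval -0.07 to 0.28, adjusted p = 0.33), 0.17 with Au_TCPP (95% interval -0.01 to 0.34, adjusted p = 0.086) and 0.06 between them (95% interval -0.12 to 0.24, adjusted p = 0.53). With library totals alone the value turned negative for Au_TCPP against Control and between the materials. In the second of these comparisons Pdha1 was then called as lower with Au_TCPP. The opposite-strand neighbour Map3k15, which shares 1143 bases, had at most 5 counts.

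Pdhb (ENSMUSG00000021748, minus strand of chr14:8165996-8173025), the beta subunit of the same E1, differed between the materials where Pdha1 was not called by the main test. It was at 127, 128 and 128 CPM in Control, 106.5, 115 and 113 with Cu_TCPP and 163, 171 and 174 with Au_TCPP. The groups did not overlap, with Cu_TCPP lowest and Au_TCPP highest. With Au_TCPP it rose 1.32-fold (log2 fold change 0.40, SE 0.075, adjusted p = 0.00025), a value that turned to -0.018 with library totals alone. Against Cu_TCPP it was 1.51-fold higher (log2 fold change 0.60, SE 0.076, adjusted p = 6.5e-06), called under every alternative. With Cu_TCPP against Control the log2 fold change was -0.19 (95% interval -0.36 to -0.03, adjusted p = 0.053), and -0.18 (adjusted p = 0.020) without Au_TCPP replicate 2. The ratio of Pdhb to Pdha1 per gene length was 0.622 ± 0.0173 in Control, 0.505 ± 0.0123 in Cu_TCPP and 0.734 ± 0.0530 in Au_TCPP, again with no overlap.

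Dld (ENSMUSG00000020664, minus strand of chr12:31331277-31351453) encodes the E3 dihydrolipoamide dehydrogenase, which reoxidises the lipoyl group in all of these complexes. It was at 162, 153 and 144 CPM in Control, 183, 153 and 189 with Cu_TCPP and 229, 207 and 249 with Au_TCPP. Au_TCPP lay above all other libraries, and Cu_TCPP overlapped Control through replicate 2. It rose 1.49-fold with Au_TCPP (log2 fold change 0.58, SE 0.10, adjusted p = 0.00013) and was 1.31-fold higher than with Cu_TCPP (log2 fold change 0.39, SE 0.10, adjusted p = 0.0035). With library totals alone these were 0.15 (adjusted p = 0.13) and 0.0087 (adjusted p = 0.93). With Cu_TCPP against Control the log2 fold change was 0.19 (95% interval -0.02 to 0.41, adjusted p = 0.14). That difference was called with offsets for gene length (0.29, adjusted p = 0.035), with the 6 libraries alone (0.20, adjusted p = 0.032), without Cu_TCPP replicate 2 (0.29, adjusted p = 0.038) and without Au_TCPP replicate 2 (0.20, adjusted p = 0.034).

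**Figure D3:**
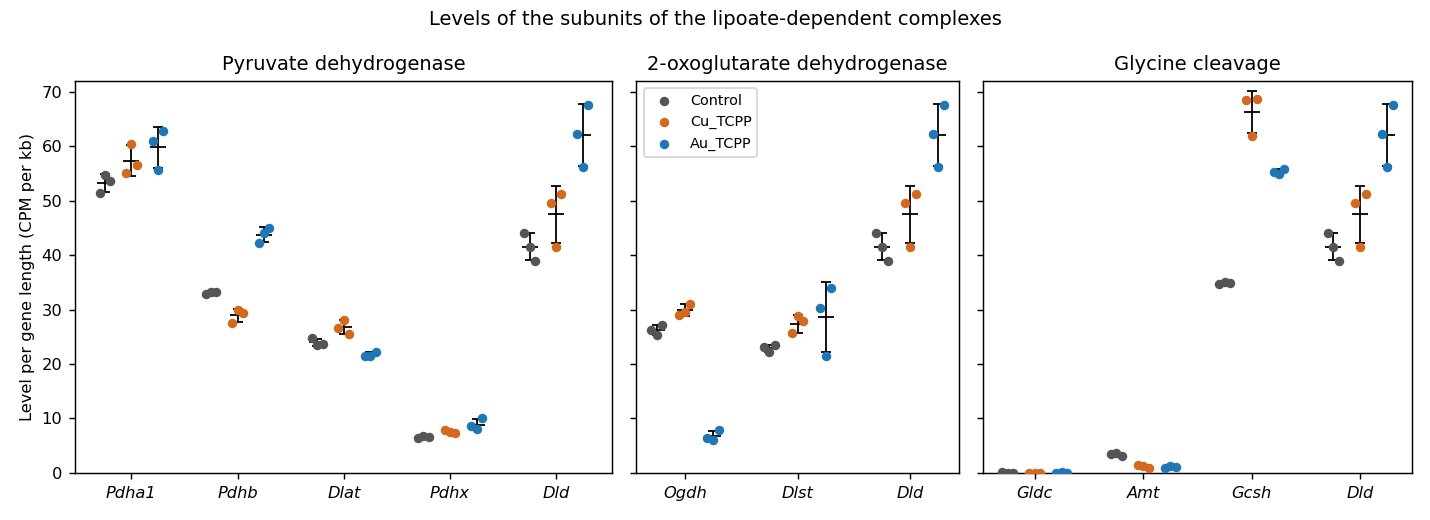
Levels per gene length (CPM per kb, linear axis from 0) of the subunits of pyruvate dehydrogenase, 2-oxoglutarate dehydrogenase and the glycine cleavage system; points are libraries of Control (grey), Cu_TCPP (orange) and Au_TCPP (blue), and bars are the mean and SD. Ogdh is at 6.05 to 7.84 CPM per kb in Au_TCPP against 25.3 to 27.2 in Control, Gcsh lies far above Amt and Gldc in every group, and Dld, shared by the 3 systems, is drawn in each panel.

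Within a complex, the levels of the subunits changed by unequal amounts. Dlat per Pdha1 was 0.450 ± 0.0263 in Control, 0.467 ± 0.0151 in Cu_TCPP and 0.364 ± 0.0191 in Au_TCPP, where it lay below both other groups. Dld per Dlat was 1.73 ± 0.0708, 1.78 ± 0.273 and 2.86 ± 0.215 in the same order, highest with Au_TCPP. Pdhx, the E3-binding protein that ties DLD to the core of pyruvate dehydrogenase and is itself lipoylated, was named after its values were seen: per Dlat it was at 0.275 ± 0.0153, 0.284 ± 0.0174 and 0.408 ± 0.0394. Its level rose 1.35-fold with Au_TCPP (adjusted p = 0.0014), a log2 fold change of 0.43 that was 0.0034 with library totals alone. Dbt, the lipoylated E2 of branched-chain oxoacid dehydrogenase, also named after its values were seen, fell 1.71-fold with Au_TCPP (adjusted p = 0.0040), from 10.7 ± 0.393 to 6.20 ± 2.45 CPM.

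Relative to Lias, both transferases were lowest with Au_TCPP. Lipt1 per Lias, per gene length, was 0.406 ± 0.0380 in Control, 0.294 ± 0.0561 in Cu_TCPP and 0.159 ± 0.0400 in Au_TCPP. Lipt2 per Lias was 0.315 ± 0.0316, 0.378 ± 0.0386 and 0.181 ± 0.0639. In both ratios the Au_TCPP libraries lay below those of the other groups.

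Per gene length, the 6 carriers and partner subunits among the 10 genes stood above Lias, Fdx1, Lipt1 and Lipt2 in every group. In Control the order was Pdha1 at 53.3 ± 1.66 CPM per kb, Dld at 41.5 ± 2.51, Gcsh at 34.9 ± 0.158, Pdhb at 33.1 ± 0.130, Dlat at 24.0 ± 0.650, Dlst at 22.9 ± 0.642, Lias at 7.46 ± 0.491, Fdx1 at 6.01 ± 0.194, Lipt1 at 3.02 ± 0.0883 and Lipt2 at 2.34 ± 0.12. No neighbours in that order overlapped. The order depends on the deposited gene length: in CPM, Dlst at 219 ± 6.14 stood highest of the 10 in Control. With Cu_TCPP, Gcsh moved from the third place to the top, at 66.3 ± 3.91 CPM per kb, above Pdha1 at 57.4 ± 2.81. The neighbours Pdhb and Dlst, Dlst and Dlat, and Fdx1 and Lias overlapped there, and Lipt2 at 3.41 ± 0.317 stood above Lipt1 at 2.65 ± 0.456. With Au_TCPP, Dld led at 62.0 ± 5.71 CPM per kb but overlapped Pdha1 at 59.8 ± 3.75, which overlapped Gcsh at 55.3 ± 0.480. Fdx1 at 12.0 ± 0.980 stood above Lias at 8.50 ± 0.935, the reverse of Control. In CPM, not divided by gene length, Fdx1 (35.2 to 40.8) and Lias (33.9 to 41.4) overlapped in Au_TCPP. Lipt2 at 1.53 ± 0.594 and Lipt1 at 1.33 ± 0.292 overlapped at the bottom, as did Dlst and Dlat in the middle.

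The promoters of Fdx1 and Gcsh are shown because these genes rose with both materials under every alternative. The sequences are from RefSeq on GRCm38.p6, whose table holds 12 windows for the 10 genes, and 200 bases are printed, from 250 to 51 bases before the annotated start. Capitals mark matches to metal response element cores, TGCACNC or TGCGCNC, and to the CCAAT box, searched on both strands.
Fdx1, minus strand, chr9:51963653-51963852: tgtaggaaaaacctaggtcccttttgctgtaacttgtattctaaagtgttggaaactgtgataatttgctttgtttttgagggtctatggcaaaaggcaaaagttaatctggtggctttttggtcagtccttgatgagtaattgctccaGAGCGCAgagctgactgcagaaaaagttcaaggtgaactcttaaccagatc
Gcsh, minus strand, chr8:116993549-116993748: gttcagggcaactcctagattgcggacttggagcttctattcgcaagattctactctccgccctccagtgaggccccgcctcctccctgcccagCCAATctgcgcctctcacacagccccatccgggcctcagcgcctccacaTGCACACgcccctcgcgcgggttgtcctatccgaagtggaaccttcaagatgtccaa
The match marked in Fdx1 is GAGCGCA, which is TGCGCNC read on the other strand. The Fdx1 window holds a second match, GGGCGCA, at offset 1 from the annotated start, outside the printed bases. A second CCAAT of Gcsh, at offset -54, runs past the end of the printed bases and is not marked. Over windows of 250 bases before to 50 after the start, TGCACNC is in 2 of the 12 windows (Gcsh and Lipt2) and in 12.6% of all 32851, and TGCGCNC in 2 (Dlat and Fdx1) and 15.4%. TGACNNNGC, the core of the antioxidant response element, is in 2 (Dlst and Pdhb) and 12.4%. CCAAT is in 5 and 37.4%, and TGATGCAA, a form of the site of ATF4, in 0 and 0.895%. A match of letters is a description of these windows and not a measured binding site.

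Around the 10 genes, of the other 9 listed subunits of the lipoate-dependent complexes, 7 were tested: with Cu_TCPP 0 rose and 3 fell (median log2 fold change -0.04), and with Au_TCPP 1 rose and 5 fell (median -0.80). Between the materials 1 was higher with Au_TCPP and 3 were lower (median -0.18). The counts of this group and of those that follow stand beside shares over all genes of 19.2% higher and 21.2% lower with Cu_TCPP, 34.4% and 34.7% with Au_TCPP, and 34.6% and 31.3% between the materials. Besides Ogdh and Amt, these subunits include Ogdhl, a relative of Ogdh, at 9.82 ± 0.386 CPM in Control, 4.58 ± 0.161 in Cu_TCPP and 1.69 ± 0.295 in Au_TCPP. Its falls were 2.14-fold (adjusted p = 9.5e-05) and 5.80-fold (adjusted p = 2.3e-08). Bckdha, the E1 alpha subunit of branched-chain oxoacid dehydrogenase, fell 2.83-fold with Cu_TCPP (adjusted p = 1.3e-05) and 1.75-fold with Au_TCPP (adjusted p = 0.00057), from 12.4 ± 0.846 CPM to 4.36 ± 0.546 and 7.08 ± 1.38.

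Among listed regulators of pyruvate and branched-chain oxoacid dehydrogenase, counted with the subunits of the mitochondrial pyruvate carrier, 11 of 12 were tested. With Cu_TCPP 1 rose and 2 fell (median -0.01), with Au_TCPP 4 rose and 5 fell (median -0.08), and between the materials 5 were higher and 4 lower with Au_TCPP (median 0.21). Pdk2, a kinase that inactivates pyruvate dehydrogenase, was at 5.39, 7.55 and 7.57 CPM in Control, 1.47, 1.06 and 1.52 with Cu_TCPP and 1.94, 3.57 and 1.82 with Au_TCPP. It fell 5.04-fold (adjusted p = 1.8e-05) and 2.78-fold (adjusted p = 0.00017). The more abundant kinases Pdk1 and Pdk3, named after their values were seen, did not share these falls. Pdk1, at 84.0 ± 1.27 CPM in Control, was not called in any comparison by the main test. Pdk3, at 41.8 ± 1.27 CPM in Control, was not called with Cu_TCPP (adjusted p = 0.22). With Au_TCPP Pdk3 rose 1.36-fold (adjusted p = 0.00039). Pdp2, a phosphatase that reactivates the complex, rose 1.72-fold with Cu_TCPP, from 18.5 ± 2.25 to 31.9 ± 1.18 CPM (adjusted p = 0.00023). With Au_TCPP it was at 17.6 ± 2.99 CPM (adjusted p = 0.62 against Control). The phosphatase Pdp1, also named after its values were seen, was at 23.7 ± 1.02 CPM in Control. It was not called with Cu_TCPP (adjusted p = 0.60) and rose 1.38-fold with Au_TCPP (adjusted p = 0.00035). Bckdk, the kinase of branched-chain oxoacid dehydrogenase, fell 2.05-fold with Au_TCPP, from 71.4 ± 2.66 to 34.8 ± 4.04 CPM (adjusted p = 3e-07). Mpc2, a subunit of the mitochondrial pyruvate carrier, rose 1.91-fold, from 24.0 ± 1.52 to 45.9 ± 11.7 CPM (adjusted p = 7.2e-05).

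Mitochondrial fatty acid synthesis supplies the octanoyl chain. Of 8 listed genes 6 are in the table under these symbols and were tested, and with Au_TCPP 3 rose and 3 fell (median -0.25). With Cu_TCPP 2 rose and 2 fell (median 0.09), and between the materials 3 were higher and 2 lower with Au_TCPP (median -0.02). Oxsm, the condensing enzyme, fell 3.65-fold with Au_TCPP, from 8.91 ± 0.582 to 2.44 ± 0.264 CPM (adjusted p = 2.9e-07), and was at 9.22 ± 1.12 CPM in Cu_TCPP. Mcat, which loads malonyl groups, fell 2.12-fold with Au_TCPP, from 22.2 ± 0.752 to 10.4 ± 1.32 CPM (adjusted p = 2.7e-06). Ndufab1, the acyl carrier protein from which LIPT2 takes the chain, rose with both materials, from 36.0 ± 0.874 CPM to 46.2 ± 3.20 (1.28-fold, adjusted p = 0.0039) and 67.8 ± 3.76 (1.88-fold, adjusted p = 2.7e-07). Aasdhppt, which arms carrier proteins with phosphopantetheine, rose 1.42-fold (adjusted p = 0.00044) and 1.71-fold (adjusted p = 2.2e-06).

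Iron-sulphur cluster assembly serves LIAS, whose clusters it builds. Of 18 listed genes 16 were tested; with Cu_TCPP 5 rose and 3 fell (median 0.20), with Au_TCPP 8 rose and 3 fell (median 0.31), and between the materials 6 were higher and 3 lower with Au_TCPP (median 0.10). Hspa9, the mitochondrial chaperone of cluster transfer, was at 703, 693 and 701 CPM in Control, 718, 708 and 722 with Cu_TCPP and 1136, 1219 and 1326 with Au_TCPP, a 1.76-fold rise with Au_TCPP (adjusted p = 5.9e-07). Hscb, its co-chaperone, fell 2.02-fold with Cu_TCPP, from 12.8 ± 0.862 to 6.32 ± 1.88 CPM (adjusted p = 0.0013), and was at 16.1 ± 4.11 CPM in Au_TCPP. Slc25a28, a mitochondrial iron importer, fell 1.55-fold with Au_TCPP, from 41.5 ± 1.85 to 26.7 ± 2.11 CPM (adjusted p = 5.5e-05). Slc25a37, of the same list, was named after its values were seen and stood at 248 ± 7.69 CPM in Control. It was not called with Au_TCPP (log2 fold change -0.052, adjusted p = 0.66) and fell 1.30-fold with Cu_TCPP (adjusted p = 0.0093).

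Of 6 other genes tied to cuproptosis 5 were tested, and with Cu_TCPP 2 rose and 0 fell (median 0.23). With Au_TCPP 3 rose and 0 fell (median 0.38), and between the materials 1 was higher and 1 lower (median 0.04). Slc31a1, the copper importer CTR1, was at 75.7, 75.8 and 80.4 CPM in Control, 85.7, 73.8 and 79.8 with Cu_TCPP and 122, 106 and 127 with Au_TCPP. It rose 1.53-fold with Au_TCPP (adjusted p = 2.2e-05), while the Cu_TCPP libraries overlapped Control (log2 fold change 0.045, adjusted p = 0.71). Mtf1, the metal-responsive transcription factor, rose 1.60-fold with Cu_TCPP, from 19.3 ± 0.701 to 30.8 ± 1.29 CPM (adjusted p = 0.00037), and was at 22.4 ± 3.85 CPM in Au_TCPP (adjusted p = 0.12). Atp7a, a copper exporter, rose 1.30-fold with Au_TCPP, from 35.8 ± 1.10 to 46.6 ± 6.82 CPM (adjusted p = 0.0088), not called without Control replicate 3 (adjusted p = 0.052) and with a log2 fold change of -0.037 under library totals alone.

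All 14 other enzymes of the tricarboxylic acid cycle were tested, and most did not pass with Cu_TCPP. With Cu_TCPP 3 rose and 2 fell (median 0.00), with Au_TCPP 5 rose and 2 fell (median 0.12), and between the materials 4 were higher and 1 lower with Au_TCPP (median 0.04). Idh3b, a subunit of isocitrate dehydrogenase, rose 1.53-fold with Au_TCPP, from 132 ± 5.16 to 202 ± 5.32 CPM (adjusted p = 8.6e-06). Idh3a, the catalytic subunit of the same enzyme, rose 1.31-fold with Cu_TCPP, from 99.7 ± 3.21 to 131 ± 2.18 CPM (adjusted p = 0.0015), and was at 109 ± 8.82 CPM in Au_TCPP (adjusted p = 0.18). Sdha, the flavoprotein of succinate dehydrogenase, fell 1.21-fold with Cu_TCPP (adjusted p = 0.016) and 1.35-fold with Au_TCPP (adjusted p = 0.00032). The Cu_TCPP call on Sdha was lost without Control replicate 2 or 3 or Cu_TCPP replicate 1 or 3 (adjusted p 0.060 to 0.099). Sucla2, a subunit of succinyl-CoA synthetase, rose 1.28-fold with Au_TCPP (adjusted p = 0.0012), with a log2 fold change of -0.064 under library totals alone.

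**Figure D4:**
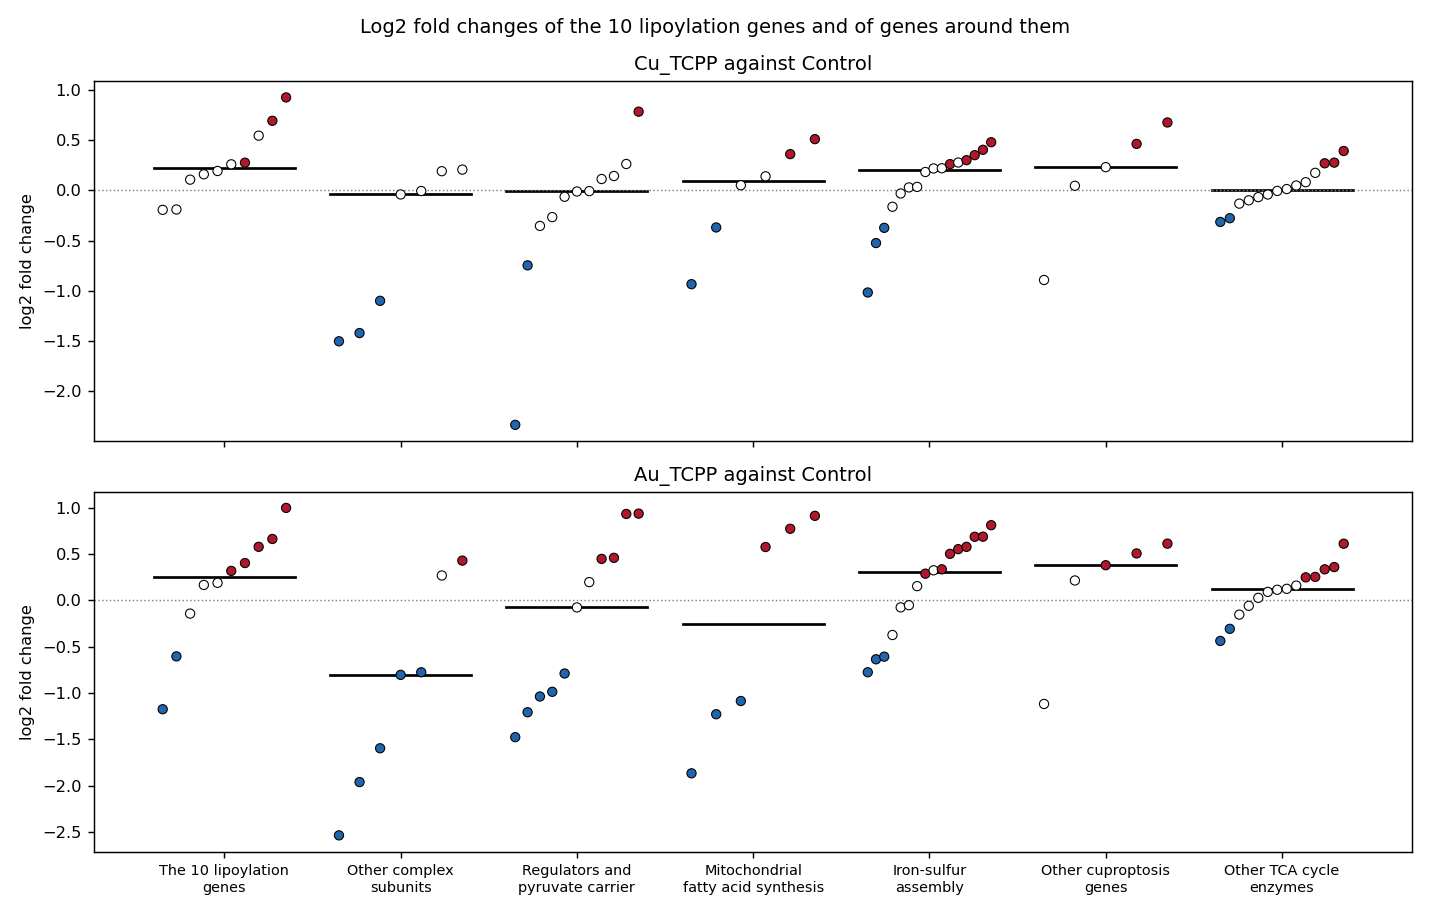
Log2 fold changes (vertical axis) of the 10 lipoylation genes and the tested genes of the 6 surrounding groups, with Cu_TCPP against Control above and Au_TCPP against Control below; each point is a gene, red or blue where called as risen or fallen, and the line is the median of its group. The other complex subunits have a median of -0.80 with Au_TCPP, against 0.25 for the 10 lipoylation genes.

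Genes with the pair of log2 fold changes against Control closest to that of Fdx1, Gcsh, Dlat and Lias were sought among 9701 genes, as a description over 3 groups of 3 libraries. For Fdx1 they were Ralb, at a distance of 0.03 on the log2 scale, Asb6 and Esco1. For Gcsh they were Pdss1, at 0.02, Esf1 and Ctu2. For Dlat, Sec31a, Senp3 and Mpp6 were closest, and for Lias, Bub1, Ccng1 and Trim39, each within 0.02.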

How the data were processed

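PolyA RNA of 9 libraries was turned into libraries with a QIAseq FX single-cell kit, per the labels' protocols. The submitters' processing notes name mm10, Bowtie 0.12.9, Cufflinks 2.1.1 and HTSeq; no source used here states strand use in counting. Deposited values include read counts per gene, not normalized, per the file headers. The table also holds FPKM by the authors, per the file headers, used here in limma only. The authors' group means, log2 fold changes and p-values, deposited in the same table, were not used.

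The main test was the quasi-likelihood test of edgeR 4.0.16 (R 4.3.3) on all 9 libraries, fitted robustly with 1 mean for each group after filterByExpr and TMM scaling, and Benjamini-Hochberg adjusted over 13915 genes. The biological coefficient of variation was 10.6%. CPM use TMM factors, and levels between genes are CPM per kb of deposited gene length. Standard errors are the absolute log2 fold change over the square root of F. The fit was tested on simulated data.

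The 10 genes, the gene lists, the marker lists and the rules were chosen with earlier results of these data known. Named genes are the 10, up to 4 called genes of each other list with the smallest p in any comparison, and the 3 genes nearest to Fdx1, Gcsh, Dlat and Lias, of at least 5 CPM, by Euclidean distance of the pair of log2 fold changes against Control. Fdxr, Pdhx, Dbt, Gldc, Mitd1, Pdk1, Pdk3, Pdp1, Slc25a37 and some of the markers fall outside this rule. Some genes the rule names are not reported here.

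The alternatives tried were library totals alone or RLE factors in place of TMM, no count filter, at least 1 CPM in 3 libraries, DESeq2 1.42.0, the 6 libraries compared alone, a replicate block, limma 3.58.1 on log2 of FPKM plus 1 or 0.1, offsets for gene length (a spline with 5 degrees of freedom per library), and leaving out each library. Sequences were read with Python 3.11.15 and figures drawn with matplotlib 3.10.9.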

Additional observations from a re-analysis of the deposited data

How the results depend on the processing

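Of 570 values of the 10 genes under alternatives, 481 kept their direction and side of the threshold, 33 kept the direction and lost the call, 38 gained one and 18 changed sign. With Cu_TCPP against Control, 3 genes were called, beside 40.4% of all genes. There were 5 with no filter on low counts (21% of all genes), 5 with DESeq2 (41.5%), 5 with limma on log2(FPKM + 1) (38.3%), 7 with offsets for gene length (43.8%), 8 with the 6 libraries alone (54.4%) and 2 to 8 when a library was left out, with 8 without Au_TCPP replicate 2 (50.4%). Leaving out a library gave 5 to 8 for Au_TCPP against Control and 6 to 8 between the materials, against 7 in each. Library totals alone moved the median of all genes by -0.42 (Au_TCPP against Control), -0.37 (between the materials) and -0.05 (Cu_TCPP against Control). Under them 2 of the 10 rose and 4 fell with Au_TCPP, with 2626 of all genes higher and 7098 lower (4783 and 4828 with TMM). Between the materials 1 was higher and 7 lower, with 2830 and 6526 of all genes (4814 and 4362 with TMM). Offsets for gene length called 3718 genes higher and 2379 lower with Cu_TCPP (2673 and 2944 without).

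Signs that changed with library totals alone were, for Au_TCPP against Control, Dlst (-0.12), Lias (-0.23), Pdha1 (-0.26), Pdhb (-0.018), Atp7a (-0.037) and Sucla2 (-0.064), and between the materials Dlst (-0.32), Fdx1 (-0.066), Pdha1 (-0.31) and Aasdhppt (-0.11). With offsets for gene length these were Dlat with Au_TCPP against Control (0.011) and Pdha1 between the materials (-0.0018). Between the materials Dlst also turned with no filter (-0.012), with limma and a pseudocount of 1 (-0.0063) or 0.1 (-0.0074), and ranged from -0.13 to 0.19 when a library was left out. Pdha1 turned with no filter (-0.013) and ranged from -0.021 to 0.075 when a library was left out. The cause was not tested. Of 1102 values of 58 called changes in other named genes, 1063 kept their call, 36 lost it and 3 changed sign. Pdk2 between the materials, Mcat and Sdha with Cu_TCPP, and Aasdhppt between the materials lost the call when single libraries were left out. The 58 leave out the markers, Mitd1, Pdk3, Pdp1 and Slc25a37.

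Replicate numbers did not pair the libraries: 0 of 9 same-numbered pairs had deviations correlated above 0.1 (-0.08 to 0.09), and 4 of 9 libraries correlated best with their own number. With a replicate block, 3, 7 and 7 of the 10 genes were called in the 3 comparisons, as without it. Lipt1 and Lipt2, with 23 to 118 counts per library, are the members whose depth limits precision most.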
